A study of Mus musculus with 12 samples.

Results

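The tricyclic antidepressants amitriptyline and imipramine were set against duloxetine in primary neurons cultured from embryonic brain of the outbred mouse strain ICR (CD-1). The comparison took 4 tricyclic arrays (2 of amitriptyline at 5 µM and 2 of imipramine at 5 µM) and 2 duloxetine arrays (0.1 µM), 6 of the 12 arrays of the series, and was made over all 23521 probe sets that carry exactly 1 gene symbol. In each group the drug was added at day in vitro 3 and the cultures were harvested at day in vitro 5, after 48 h, in Neurobasal medium with B27 supplement. The control arrays (2), for which no vehicle is stated in the sources used here, and those of citalopram (2, 10 µM) and mirtazapine (2, 50 µM) entered the estimate of the spread and not the difference. The tricyclic dose was 50 times the duloxetine dose, so drug class and dose cannot be told apart. Whether replicates were separate cultures or animals is not stated, and p-values therefore measure only the spread between these samples.

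Amitriptyline and imipramine carry a dimethylamino side chain on a system of 3 fused rings. They block the serotonin and noradrenaline transporters and also histamine and muscarinic receptors, and as cationic amphiphilic bases they collect in lysosomes. Duloxetine lacks the fused ring system, has a methylamino group beside a thiophene and a naphthyl ether, and blocks the same transporters more selectively. Primary neuronal cultures hold glia and dividing progenitors beside neurons, and stress programs such as the integrated stress response, in which ATF4 is translated after phosphorylation of eIF2α, can be read from their transcripts.

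All values are the authors' log2 RMA values, on which a difference of 1 is a doubling. All 16 neuron markers examined lay at or above the 30th percentile of all probe sets (log2 5.72), as did 23 of 24 astrocyte, 16 of 17 oligodendrocyte lineage, 17 of 18 fibroblast and pericyte, 15 of 17 microglia and 12 of 16 endothelial markers. This level does not tell cell types apart. Duloxetine replicate 2 stood apart. Its slope on the mean of the 11 remaining arrays was 0.938, against 0.993 to 1.02 elsewhere except for mirtazapine replicate 2 (0.924), and its lower and upper quartiles (5.5 and 8.21) lay closer together than those of duloxetine replicate 1 (5.37 and 8.33). The residual SD was 0.141 for the amitriptyline and 0.144 for the imipramine arrays, against 0.259 for the duloxetine arrays. Genes described array by array and the medians of gene lists are therefore also given against duloxetine replicate 1 and replicate 2 alone, in this order in parentheses where not named. With 2 arrays a group, the 95% interval of the difference had a median half-width of 0.271 log2 units.

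Under the tricyclics 33 probe sets rose and 14 fell relative to duloxetine at an adjusted p under 0.05 in limma. These were 0.2% of the probe sets tested, 0.14% higher and 0.0595% lower. A further quantile normalization turned this split into 45 higher and 45 lower. At an unadjusted p under 0.05 there were 3553 probe sets, 1530 higher and 2023 lower, and over all probe sets the median difference was −0.03, with 10206 positive and 13275 negative. The 4 tricyclic arrays lay to 1 side of both duloxetine arrays in all of the 47 called, as they did in 21.8% of all probe sets. The median size of the called differences was 0.85. It was 0.76 against duloxetine replicate 1 alone and 0.88 against replicate 2 alone, and the smallest of the 47 was 0.48 and 0.53. The 47 were selected on both duloxetine arrays together, so these sizes do not test how stable the differences are. The count of calls changed with the array left out. Single genes moved too, such as Car6 (1.27 against duloxetine replicate 1 alone and 1.76 against replicate 2 alone) and Smoc1 (−0.94 and −0.64). Without duloxetine replicate 1 limma called 2753, among them all 47, and without replicate 2 it called 0, with a lowest adjusted p of 0.0848 and 1746 at an unadjusted p under 0.05. Leaving out any amitriptyline, imipramine or citalopram array left 2 called, and leaving out a control array left 32 (26 higher, 6 lower) and a mirtazapine array 36 (29 higher, 7 lower). A fit to the 6 arrays alone called 4. Taken gene by gene, an exact two-sided permutation test of 4 arrays against 2 has 15 arrangements and gave p = 0.133 for Ptgs2, Ier3, Hmox1, Bgn and Aqp4, the smallest it can give.

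**Figure D1:**
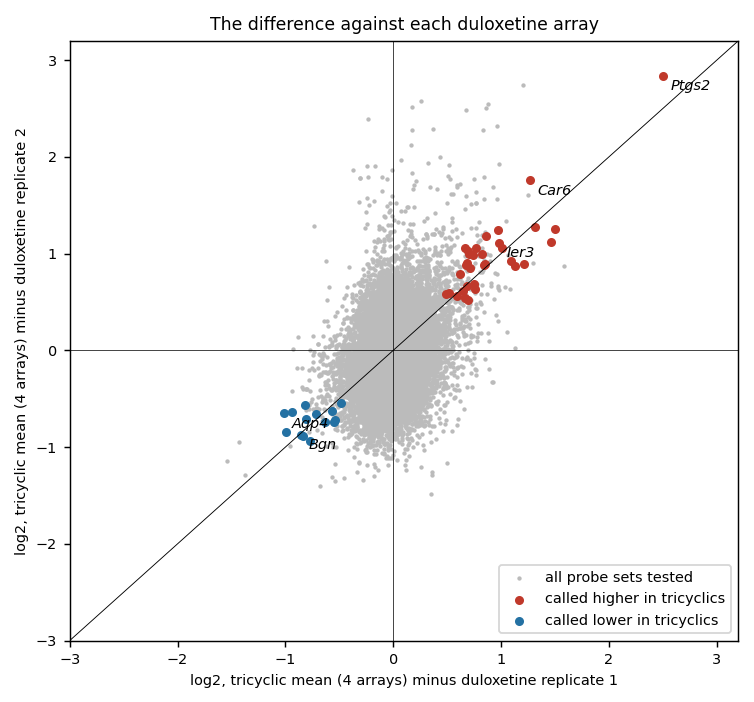
Each point is a probe set, with the log2 difference of the tricyclic mean from duloxetine replicate 1 on the x axis and from replicate 2 on the y axis; the line marks equal differences. The 33 called higher and 14 called lower lie near the line, while the grey cloud of all 23521 probe sets is taller than it is wide.

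The largest difference was that of a prostaglandin gene. Ptgs2, encoding the inducible prostaglandin synthase COX-2, read 9.90 and 9.80 under amitriptyline and 10.36 and 9.94 under imipramine, against 7.50 and 7.16 under duloxetine, with 7.45 and 8.11 in control. All tricyclic arrays were above all duloxetine and control arrays. The mean was 6.36-fold that of duloxetine (log2 difference 2.67 ± 0.22 SE, 95% interval 2.17 to 3.17, limma adjusted p = 0.00455). Ier3, an early response gene whose protein counters cell death, read 9.28 and 9.21 under amitriptyline and 9.47 and 9.33 under imipramine, against 8.34 and 8.21 under duloxetine, with 8.43 and 8.46 in control. Here too the groups did not overlap, and the mean was 2.07-fold that of duloxetine (log2 difference 1.05 ± 0.08 SE, adjusted p = 0.00455). These were also the genes that passed for each tricyclic alone. Relative to duloxetine, amitriptyline raised Ptgs2 by 2.52 and Ier3 by 0.97 (both adjusted p = 0.028), and imipramine raised them by 2.82 (adjusted p = 0.0102) and 1.13 (adjusted p = 0.00975). In each of these fits 2 probe sets were called, 0.0085% of those tested for amitriptyline and 0.0085% for imipramine. Left-out arrays moved these counts: for amitriptyline 816 were called without duloxetine replicate 1, 5 without a control array and 0 without duloxetine replicate 2 or any amitriptyline, imipramine or citalopram array. For imipramine 1765 were called without duloxetine replicate 1, 6 without a control array and 0 without duloxetine replicate 2 or an imipramine array. Without duloxetine replicate 2 the difference of the pooled tricyclics was 2.5 for Ptgs2 and 0.98 for Ier3 (adjusted p = 0.0848 for each), and against replicate 2 alone it was 2.84 and 1.11.

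Neutrophil chemokine genes also rose. Cxcl2 read 8.95 and 8.57 under amitriptyline and 9.35 and 8.91 under imipramine, against 7.48 and 7.83 under duloxetine, with 7.62 and 7.71 in control. The tricyclic arrays were above all duloxetine and control arrays, and the difference was 1.29 ± 0.16 SE (adjusted p = 0.031; 1.47 and 1.12). Cxcl1 rose by 1.00 (adjusted p = 0.0378). The list of prostaglandin, chemokine and NF-kB target genes as a whole did not share this. Of its 31 members tested these 4 were called higher (12.9%) and 0 lower, 16 differences were positive and 15 negative, and the median was 0.06 (0.12 and −0.03). Below the threshold were the siderophore-binding protein gene Lcn2 (0.86, adjusted p = 0.0583), the secreted phospholipase gene Pla2g2e (0.58, adjusted p = 0.0738), the cytosolic phospholipase gene Pla2g4a (0.57, adjusted p = 0.0975) and the adhesion molecule gene Vcam1 (−0.58, adjusted p = 0.09). Microglia and macrophage markers had 0 of 17 called, 10 positive and 7 negative differences and a median of 0.03 (0.10 and −0.07). Their list means were 6.81 to 6.89 under the tricyclics and 6.74 to 6.95 under duloxetine. The markers of lowest p were Cd68 (0.62, adjusted p = 0.0767), Csf1r (−0.31, adjusted p = 0.274) and Ctss (0.36, adjusted p = 0.32). The part of these cells in the prostaglandin and chemokine differences was not tested.

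The promoters of the higher genes of lowest p with a RefSeq entry (GRCm38.p6, 250 bases before to 50 after the start) are shown as a description. Their shared direction was fixed by this choice. Capitals mark the motifs found among those searched on both strands, which were the CCAAT box, the cell cycle homology region with the letters TTTGAA in its first form or TTCGAA in its second, the cyclic AMP response element TGACGTCA and separately its core, which reads TGACG, the composite of ATF4 and C/EBP, which reads TGATGNAA, and the antioxidant response element, which reads TGACNNNGC. Ier3 (chr17:35821463-35821762, plus strand) held CCAAT at 2 positions, and Ptgs2 (chr1:150099781-150100080, plus strand) held TGACG on the minus strand. Steap1 (chr5:5749268-5749567, minus strand) held no match.
Ier3: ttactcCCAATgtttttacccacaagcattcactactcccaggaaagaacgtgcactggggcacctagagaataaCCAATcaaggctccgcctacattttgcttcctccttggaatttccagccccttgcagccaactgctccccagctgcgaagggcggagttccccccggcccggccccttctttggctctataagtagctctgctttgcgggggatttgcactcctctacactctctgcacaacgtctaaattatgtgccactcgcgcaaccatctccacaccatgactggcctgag
Ptgs2: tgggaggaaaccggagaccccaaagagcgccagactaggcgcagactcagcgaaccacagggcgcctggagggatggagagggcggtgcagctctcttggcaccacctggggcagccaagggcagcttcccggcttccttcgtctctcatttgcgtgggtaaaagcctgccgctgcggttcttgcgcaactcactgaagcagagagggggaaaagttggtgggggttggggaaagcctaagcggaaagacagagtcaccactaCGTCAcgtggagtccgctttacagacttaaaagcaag
Steap1: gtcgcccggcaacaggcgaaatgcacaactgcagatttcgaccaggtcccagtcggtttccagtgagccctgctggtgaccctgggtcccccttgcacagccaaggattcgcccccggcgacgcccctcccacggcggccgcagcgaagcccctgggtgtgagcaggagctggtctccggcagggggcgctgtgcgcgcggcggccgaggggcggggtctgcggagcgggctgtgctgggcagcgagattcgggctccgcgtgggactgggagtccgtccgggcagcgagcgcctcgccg
TGACG stood in 8 of the 24 called higher genes with a promoter entry and in 0 of the 9 called lower ones, against 21.0% of 27025 genes. CCAAT stood in 9 of 24 and 5 of 9, against 37.9% of genes. The full element TGACGTCA, which contains TGACG, stood in Ppp1r15a alone among the higher genes (1.88% of genes), and TGACNNNGC in 3 of 24 and 1 of 9 (12.5% of genes). These are matches of letters, not binding sites.

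Oxidative stress genes rose in part. Hmox1, the inducible heme oxygenase and a target of the transcription factor NRF2, read 10.52 and 10.53 under amitriptyline and 10.62 and 10.45 under imipramine, against 9.22 and 9.26 under duloxetine, with 9.02 and 9.48 in control. The duloxetine and control values overlapped, and the tricyclic mean was 2.45-fold that of duloxetine (1.29 ± 0.14 SE, adjusted p = 0.0235; 1.31, adjusted p = 0.0848, against replicate 1 alone and 1.27 against replicate 2 alone). Abcc4, which encodes an efflux pump for organic anions, read 8.44 to 8.64 under the tricyclics and 7.58 and 7.31 under duloxetine, a difference of 1.11 (adjusted p = 0.0378; 0.97 and 1.24). Of 24 NRF2 antioxidant genes these 2 were called (8.33%), 21 differences were positive and 3 negative, and the median was 0.24 (0.16 against duloxetine replicate 1 alone and 0.32 against replicate 2 alone). The cystine transporter gene Slc7a11 (1.26, adjusted p = 0.0843), the sulfiredoxin gene Srxn1 (0.85, adjusted p = 0.0805) and Nfe2l2, encoding NRF2 itself (0.60, adjusted p = 0.143), did not pass.

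Integrated stress response genes gave the highest share of calls of any list examined. Of 35 genes 6 rose (17.1%) and 0 fell, 34 differences were positive and 1 was negative, and the median was 0.29 (0.34 against duloxetine replicate 1 alone and 0.28 against replicate 2 alone). Over all probe sets 0.14% were called higher and 43.4% of the differences were positive. All lists were chosen with earlier results of these data known, so their ranking is a description only. Atf3, a transcription factor induced by ATF4, read 9.46 and 9.28 under amitriptyline and 9.66 and 9.37 under imipramine, against 8.23 and 8.55 under duloxetine, with 8.33 and 8.64 in control (difference 1.05 ± 0.13 SE, adjusted p = 0.031; 1.21 and 0.89). Ddit3, encoding the pro-apoptotic factor CHOP, read 9.89, 9.72, 9.94 and 9.82 under the tricyclics, against 9.02 and 8.85 under duloxetine, with 9.63 and 9.53 in control (0.91 ± 0.13 SE, adjusted p = 0.0363; 0.82 and 0.99). Atf3 control arrays lay among or near the duloxetine ones, whereas for Ddit3 they lay nearer the tricyclics. The others were Nupr1, a stress-induced chromatin protein gene (0.87, adjusted p = 0.0378), Ppp1r15a, which encodes the GADD34 subunit of the eIF2α phosphatase (0.72, adjusted p = 0.036), Slc7a3, a cationic amino acid transporter gene (0.67, adjusted p = 0.0378), and Pck2, the mitochondrial phosphoenolpyruvate carboxykinase gene (0.61, adjusted p = 0.0378). Next came Shmt2, of mitochondrial serine metabolism (0.44, adjusted p = 0.0791), Slc7a11, which also stands on this list, and Aldh1l2 (0.43, adjusted p = 0.0972). Ero1a, the oxidase that forms disulfides in the endoplasmic reticulum, lies outside the list and rose by 0.86 (adjusted p = 0.036), and its second probe set differed by 0.81 (adjusted p = 0.0738). Chaperone and heat shock genes had 0 of 26 called, 23 positive and 3 negative differences and a median of 0.13, which was 0.01 against duloxetine replicate 1 alone and 0.27 against replicate 2 alone.

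The composite TGATGNAA stood in the promoters of 5 of the 24 called higher genes with an entry and 0 of the 9 lower ones, against 4.06% of genes, and these stretches are printed because 3 of the 5 (Atf3, Nupr1, Pck2) are integrated stress response genes. They were picked for the match after the values were seen. Each is a 30-base stretch of the gene's own strand with the match, or its reverse complement, in capitals. It lay 102 bases before the start in Atf3 (chr1:191183425-191183454, minus strand) and in Nupr1 (chr7:126625562-126625591, minus strand) and 95 before it in Pck2 (chr14:55540152-55540181, plus strand). In Chchd10 it occurred 77 and 64 bases before the start (chr10:75933034-75933063 and chr10:75933047-75933076, plus strand), and in Cyb5r2 just after the start (chr7:107758003-107758032, minus strand).
Atf3: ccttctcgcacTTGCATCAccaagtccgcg
Chchd10: ttggcacacgcTGATGCAAatggctgatgc
Chchd10: atgcaaatggcTGATGCAAatgcgcacact
Cyb5r2: actgccggatgTTTCATCAtccccaccatc
Nupr1: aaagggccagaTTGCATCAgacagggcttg
Pck2: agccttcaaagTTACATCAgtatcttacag

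Further genes of the 15 of lowest p among those higher had varied roles. Ostn, the gene of the secreted peptide osteocrin, read 7.21 and 7.24 under amitriptyline and 7.45 and 7.42 under imipramine, against 5.83 and 6.08 under duloxetine, with 5.62 and 6.18 in control. The tricyclic arrays were above all duloxetine and control arrays (difference 1.38 ± 0.15 SE, 2.59-fold, adjusted p = 0.0235; 1.5 and 1.25). It was the 1 gene called among 27 trophic factor and neurotrophin receptor genes, whose median was −0.06 (0.0025 and −0.16), and Bdnf differed by −0.06 (95% interval −0.29 to 0.17) and Vegfa by 0.29 (adjusted p = 0.167). Car6, a secreted carbonic anhydrase gene, rose by 1.51 (adjusted p = 0.031), and Steap1, a gene of a metalloreductase family, by 1.01 (adjusted p = 0.031). Tgif1, encoding a repressor in TGF-β signalling, rose by 0.91, Cyb5r2, a cytochrome b5 reductase gene, by 0.87, Fbln5, encoding the elastic fibre protein fibulin 5, by 0.78, and Piezo1, the mechanosensitive channel gene, by 0.63 (adjusted p = 0.031 for each). Chchd10, encoding a protein of the mitochondrial intermembrane space, rose by 0.86 (adjusted p = 0.031), and Cox6a2, a cytochrome c oxidase subunit gene, by 0.70 (adjusted p = 0.0324). The other called genes of named kinds, Fibin, Cpeb1, Cyb5r1, Trim66 and Stard5, rose by 0.78, 0.70, 0.60, 0.58 and 0.55. Of 39 nuclear oxidative phosphorylation genes 0 were called, and their median was 0.07 (−0.02 and 0.15).

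Rgs2, a regulator of G protein signalling induced by neuronal activity, was the 1 gene called among 38 immediate early genes. It read 10.42 and 10.54 under amitriptyline and 10.95 and 10.62 under imipramine, against 9.97 and 9.58 under duloxetine, with 10.41 and 10.27 in control (difference 0.86 ± 0.13 SE, adjusted p = 0.0378; 0.66 and 1.05). The control arrays lay just below the lowest tricyclic array. A second Rgs2 probe set differed by 0.74 (adjusted p = 0.101) and was not called. The list had 23 positive and 15 negative differences and a median of 0.06 (0.12 and 0.02). Npas4 (1.00, adjusted p = 0.139), Fos (0.69, adjusted p = 0.225), Egr1 (0.39, adjusted p = 0.165) and Arc (0.08, adjusted p = 0.657) did not pass.

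**Figure D2:**
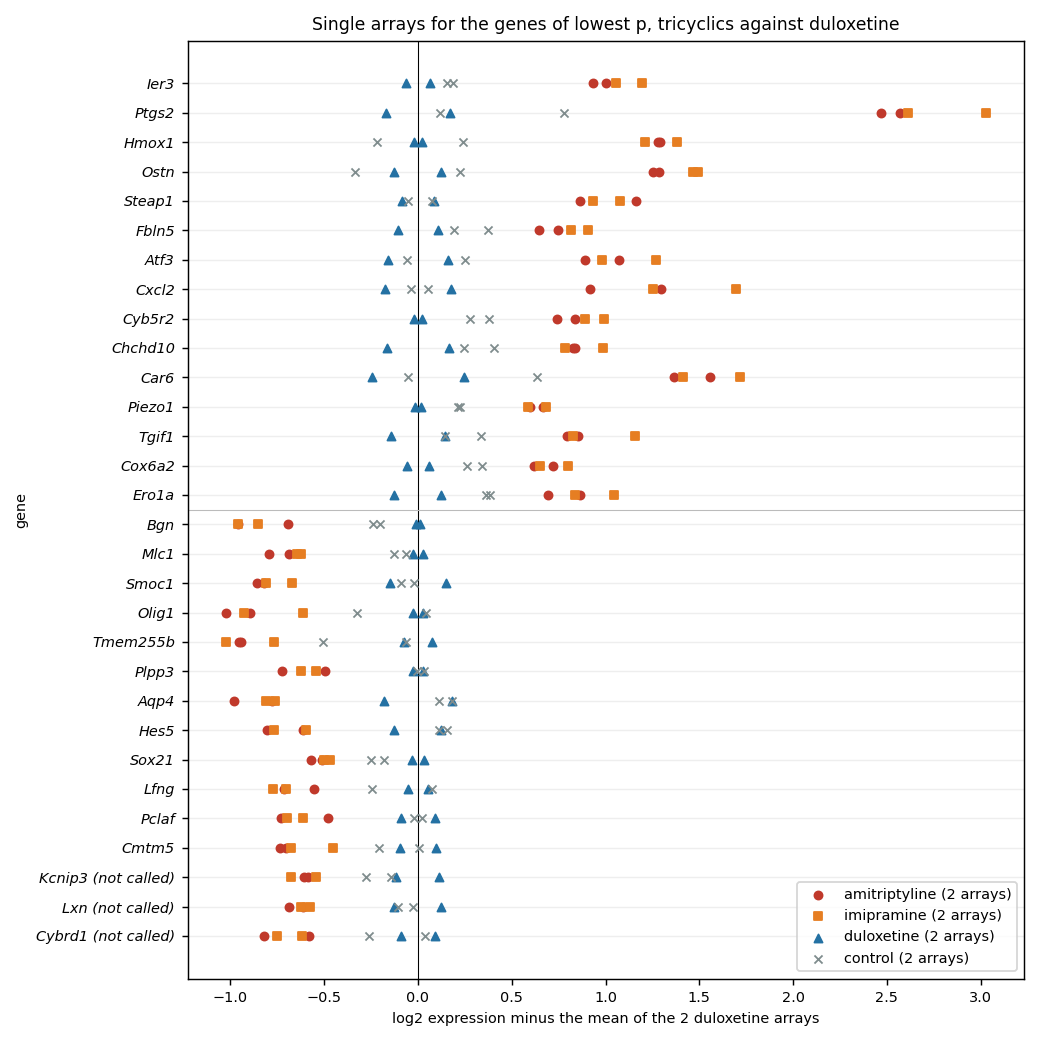
Log2 values of single arrays for the 15 genes of lowest p in each direction (higher above, lower below the grey line), as the difference from the duloxetine mean; circles are amitriptyline, squares imipramine, triangles duloxetine and crosses control, 2 arrays each. The tricyclic symbols lie beyond both triangles in every row, from Ptgs2 at 2.67 on average to Tmem255b at −0.92, and the control crosses mostly lie nearer the triangles.

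Of the 14 probe sets called lower, 2 were on the astrocyte list and 1 on the oligodendrocyte lineage list. Aqp4, the astrocyte water channel gene, read 7.55 and 7.75 under amitriptyline and 7.72 and 7.77 under imipramine, against 8.71 and 8.35 under duloxetine, with 8.71 and 8.64 in control. Tricyclic arrays were below all duloxetine and control arrays (difference −0.83 ± 0.12 SE, adjusted p = 0.0378; −1.01, adjusted p = 0.0848, against replicate 1 alone and −0.65 against replicate 2 alone). Mlc1, encoding an astrocyte membrane protein, read 9.09 and 9.20 under amitriptyline and 9.26 and 9.24 under imipramine, against 9.91 and 9.86 under duloxetine, with 9.76 and 9.82 in control (−0.69 ± 0.09 SE, adjusted p = 0.031; −0.71 and −0.66). Of 24 astrocyte markers these 2 fell (8.33%), all 24 differences were negative, 17 had an unadjusted p under 0.05, and the median was −0.35, against −0.03 over all probe sets. The median was −0.33 against duloxetine replicate 1 alone and −0.31 against replicate 2 alone. The intermediate filament gene Gfap (−0.46, adjusted p = 0.0912), the glial transcription factor gene Sox9 (−0.46, adjusted p = 0.104) and the glutamate transporter gene Slc1a2 (−0.39, adjusted p = 0.115) did not pass. In these bulk samples fewer cells of a type and less RNA per cell cannot be told apart.

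The oligodendrocyte lineage list had the lowest median of all lists. Olig1, a transcription factor gene of that lineage, read 9.82 and 9.95 under amitriptyline and 9.92 and 10.23 under imipramine, against 10.82 and 10.87 under duloxetine, with 10.52 and 10.89 in control (−0.87 ± 0.12 SE, adjusted p = 0.036; −0.84 and −0.89). It was the 1 of 17 markers called (5.88%). Of the differences 16 were negative, 14 of them at an unadjusted p under 0.05, and the median was −0.46 (−0.50 against duloxetine replicate 1 alone and −0.57 against replicate 2 alone). Larger differences than that of Olig1 were seen in Gpr17 and Pdgfra, progenitor genes that did not pass. Gpr17, a receptor gene of committed oligodendrocyte precursors, read 7.21, 7.23, 7.18 and 7.29 under the tricyclics, against 8.60 and 8.52 under duloxetine, with 7.25 and 8.34 in control (−1.33, adjusted p = 0.0746; −1.37 and −1.29). Pdgfra, the receptor gene of earlier precursors, differed by −1.34 (adjusted p = 0.128), Bcas1 by −0.62 (adjusted p = 0.0949) and Olig2 by −0.68 (adjusted p = 0.0978). For Gpr17 the control arrays lay apart, with control replicate 1 at the tricyclic level and replicate 2 near the duloxetine level, and the list mean was 7.69 and 8.01 in these arrays, between 7.49 to 7.58 under the tricyclics and 8.06 and 8.12 under duloxetine. Cmtm5, a membrane protein gene of the same lineage, fell by 0.64 (adjusted p = 0.0497).

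The other genes that fell included matrix and progenitor genes. Bgn, the gene of the small matrix proteoglycan biglycan, read 7.94 and 8.21 under amitriptyline and 7.94 and 8.05 under imipramine, against 8.89 and 8.91 under duloxetine, with 8.66 and 8.70 in control (−0.87 ± 0.11 SE, adjusted p = 0.031; −0.86 and −0.88). Its second probe set differed by −0.39 (adjusted p = 0.288). Smoc1, a secreted matrix and BMP antagonist gene, fell by 0.79 (adjusted p = 0.036), Tmem255b, a membrane protein gene, by 0.92 (adjusted p = 0.0364) and Plpp3, a lipid phosphate phosphatase gene, by 0.60 (adjusted p = 0.0378). Hes5, a Notch effector that maintains neural progenitors, read 8.80 and 8.99 under amitriptyline and 8.84 and 9.01 under imipramine, against 9.73 and 9.48 under duloxetine, with 9.72 and 9.76 in control (−0.70 ± 0.10 SE, adjusted p = 0.0378; −0.82 and −0.57). Lfng, which modifies Notch receptors, fell by 0.69 (adjusted p = 0.0398) and the progenitor factor gene Sox21 by 0.51 (adjusted p = 0.0388). Kcnip3 (−0.60, adjusted p = 0.053), Lxn (−0.63, adjusted p = 0.053) and Cybrd1 (−0.69, adjusted p = 0.0626) were the next by p and were not called. The second probe sets of Hes5 (−0.36, adjusted p = 0.488) and Sox21 (−0.31, adjusted p = 0.356) did not pass. Of 24 Notch and BMP pathway targets Hes5 was the 1 called (4.17%), 20 differences were negative and the median was −0.16 (−0.17 and −0.20). Of 16 radial glia and progenitor markers it was again the 1 called (6.25%), with a median of −0.15 (−0.18 and −0.13). Here 12 differences were negative and 4 positive. Among the positive ones were Tnc (0.45, adjusted p = 0.112) and Nes (0.63, adjusted p = 0.165), which did not pass.

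Promoters of the lower genes of lowest p with a RefSeq entry are shown in the same way. Bgn (chrX:73483351-73483650, plus strand) held the cell cycle homology letters on each strand. Mlc1 (chr15:88978504-88978803, minus strand) held CCAAT as its reverse complement ATTGG on the gene's own strand, which is the one printed. Tmem255b (chr8:13435209-13435508, plus strand) held no match.
Bgn: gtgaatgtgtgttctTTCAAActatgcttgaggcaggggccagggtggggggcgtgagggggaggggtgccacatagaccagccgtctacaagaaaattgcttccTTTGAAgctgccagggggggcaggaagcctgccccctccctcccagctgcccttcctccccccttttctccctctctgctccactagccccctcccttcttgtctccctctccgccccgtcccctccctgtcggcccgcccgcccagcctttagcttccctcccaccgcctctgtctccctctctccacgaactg
Mlc1: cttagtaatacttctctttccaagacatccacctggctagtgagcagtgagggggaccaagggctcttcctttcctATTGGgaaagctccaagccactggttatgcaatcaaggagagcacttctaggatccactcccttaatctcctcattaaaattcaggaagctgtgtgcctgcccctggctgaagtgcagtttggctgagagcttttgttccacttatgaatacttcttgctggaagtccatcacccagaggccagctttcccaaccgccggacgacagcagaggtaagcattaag
Tmem255b: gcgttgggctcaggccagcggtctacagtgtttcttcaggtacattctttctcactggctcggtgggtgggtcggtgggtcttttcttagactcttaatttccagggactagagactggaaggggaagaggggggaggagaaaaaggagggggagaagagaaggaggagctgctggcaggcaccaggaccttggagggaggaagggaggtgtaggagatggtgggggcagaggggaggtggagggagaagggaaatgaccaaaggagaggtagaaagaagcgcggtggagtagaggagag

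Mitosis genes were lower in a way that depended on the duloxetine array. All 31 differences were negative, 16 at an unadjusted p under 0.05, but 0 were called, and the median of −0.32 was −0.51 against duloxetine replicate 1 alone and −0.12 against replicate 2 alone. The list mean was 7.08 to 7.31 under the tricyclics, against 7.75 in duloxetine replicate 1 and 7.34 in replicate 2, with 7.79 and 7.75 in control. The proliferation marker gene Mki67 read 7.96 and 8.25 under amitriptyline and 8.02 and 8.12 under imipramine, against 8.89 and 8.49 under duloxetine (−0.60, adjusted p = 0.105; −0.80 and −0.40). Ccnb2 (−0.43, adjusted p = 0.0912) and Ccna2 (−0.68, adjusted p = 0.0981), genes of mitotic cyclins, and the topoisomerase gene Top2a (−0.62, adjusted p = 0.115) did not pass either. Of 31 DNA replication and S phase genes only Pclaf, encoding a PCNA-binding factor, fell (−0.63, adjusted p = 0.0398; 3.23% of the list), and the median was −0.08 (−0.14 and, with its sign turned, 0.08).

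No gene was called on the lists of drug targets, neuron markers, synaptic and receptor genes, neuropeptides or axon guidance genes. Of 32 transporters and receptors for monoamines, histamine and acetylcholine 0 were called, with 8 positive and 24 negative differences and a median of −0.06 (−0.05 and −0.05). The serotonin transporter gene Slc6a4 differed by −0.33 (95% interval −0.67 to 0.01), the noradrenaline transporter gene Slc6a2 by −0.32 (−0.70 to 0.05) and the histamine receptor gene Hrh1 by −0.37 (adjusted p = 0.241). Of 16 neuron markers 0 were called (median −0.05, or −0.05 and −0.01, list mean 10.97 to 11.03 under the tricyclics and 11.01 to 11.07 under duloxetine). There were also 0 calls among 12 inhibitory (median 0.12, or 0.10 and 0.17) and 12 excitatory neuron markers (−0.08, or −0.11 and −0.06), 28 presynaptic (−0.01, or −0.08 and 0.02) and 27 glutamate and GABA receptor genes (0.03, or −0.02 and 0.12). The same held for 26 neuropeptide (−0.05, or −0.03 and −0.07) and 36 axon guidance genes (−0.03, or −0.02 and 0.04). Of the inhibitory marker differences 10 were positive and 2 negative, with Sst at 0.51 (adjusted p = 0.0912). Of the excitatory ones 3 were positive and 9 negative. Genes of lipid handling and lysosomes, where cationic amphiphilic drugs collect, likewise had 0 calls, with medians of 0.05 (−0.04 and 0.08) over 27 sterol and fatty acid synthesis genes and 0.09 (0.03 and 0.16) over 32 lysosome and autophagy genes. Npc1, the lysosomal cholesterol transporter gene, differed by 0.27 (95% interval 0.05 to 0.49, adjusted p = 0.262).

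Lists of other cells and conditions had 0 calls as well. The median was −0.29 over 18 fibroblast and pericyte markers (−0.17 against duloxetine replicate 1 alone and −0.34 against replicate 2 alone), −0.16 over 16 endothelial markers (−0.03 and −0.28), −0.10 over 19 interferon response genes (0.01 and −0.26, and 0.21 over the 7 left by a filter at the 50th percentile) and 0.07 over 27 glycolysis and hypoxia genes (−0.02 and 0.14). Of the fibroblast and pericyte differences 16 were negative and 2 positive, with 6 and 2 at an unadjusted limma p under 0.05. The median of these markers was 0.01 for the tricyclics minus control and 0.22 for duloxetine minus control. Of 9 erythroid markers 2 had a probe set with 1 symbol, both under the 30th percentile.

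**Figure D3:**
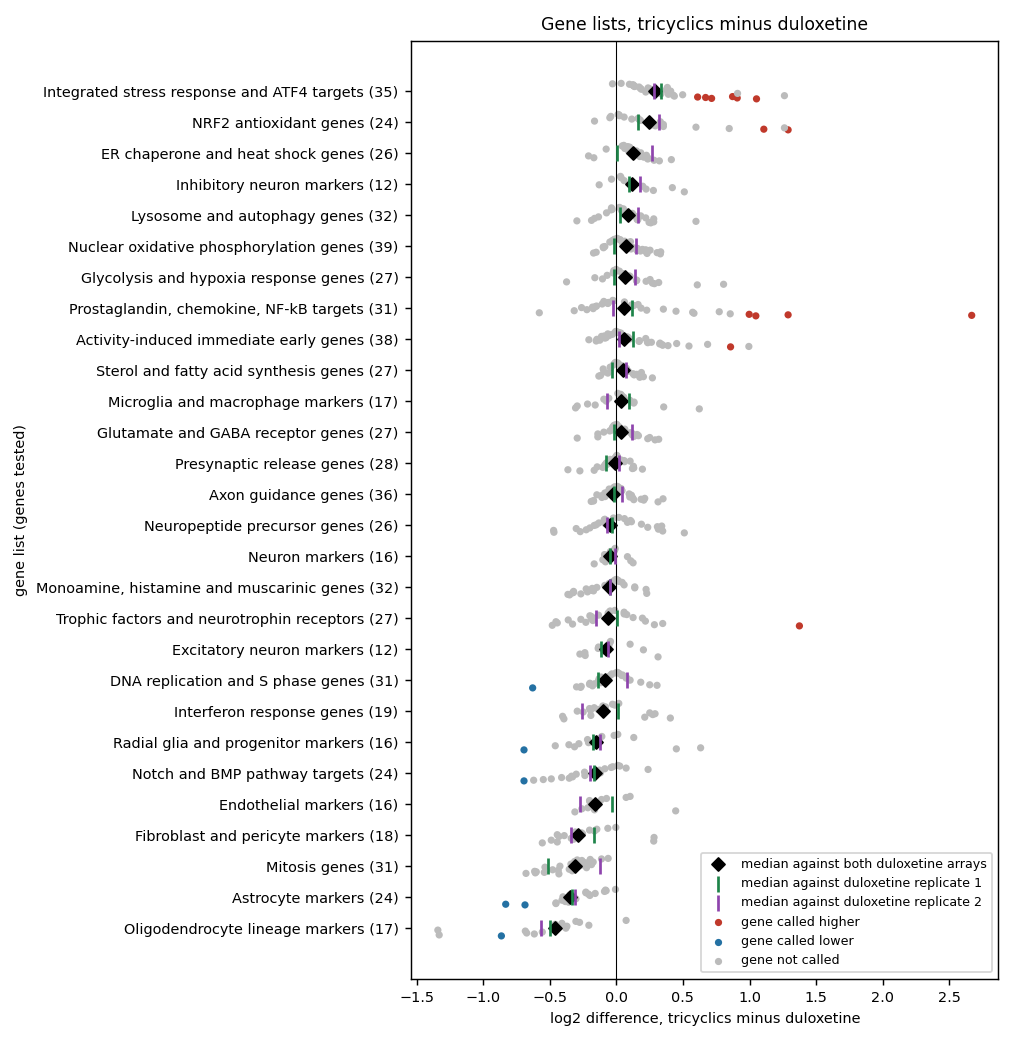
Log2 difference of tricyclics minus duloxetine (x axis) for the genes of 28 lists; points are genes (called higher red, called lower blue, others grey), diamonds medians, and the green and purple bars medians against duloxetine replicate 1 and replicate 2 alone. Medians run from 0.29 for integrated stress response genes to −0.46 for oligodendrocyte lineage markers, and the bars part most for mitosis genes (−0.51 and −0.12).

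The control arrays, which the difference does not use, were set beside the called genes. The control mean lay between the tricyclic and duloxetine means for 40 of the 47 called probe sets. It was nearer duloxetine for 38, 26 of the higher and 12 of the lower, and nearer the tricyclics for 9. The 47 were chosen for a large gap between the tricyclics and duloxetine, which favours a control mean between them. No share over all probe sets stands beside these counts, so they are a description only. Both comparisons below share the control arrays. For Ptgs2 the tricyclics minus control difference was 2.22 and the duloxetine minus control difference −0.45. The values were 1.28 and −0.01 for Hmox1, 1.28 and −0.01 for Cxcl2, 1.43 and 0.06 for Ostn, and −0.98 and −0.15 for Aqp4, where duloxetine lay near control. They were 0.26 and −0.65 for Ddit3, 0.29 and −0.57 for Rgs2, 0.32 and −0.36 for Slc7a3 and 0.22 and −0.36 for Trim66, where duloxetine lay further from control than the tricyclics did. For Tmem255b they were −0.64 and 0.29, on opposite sides of control, as they also were for Ptgs2, Ddit3, Rgs2, Slc7a3 and Trim66. The called differences were not shown to be particular to the tricyclics. Against the same 2 duloxetine arrays, Ptgs2 differed by 2.67 for the tricyclics, 2.59 for citalopram and 2.24 for mirtazapine. The values in the same order were 1.29, 1.15 and 1.17 for Hmox1, 0.91, 0.79 and 0.57 for Ddit3, −0.83, −0.63 and −1.02 for Aqp4 and −0.87, −0.75 and −0.97 for Olig1.

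**Figure D4:**
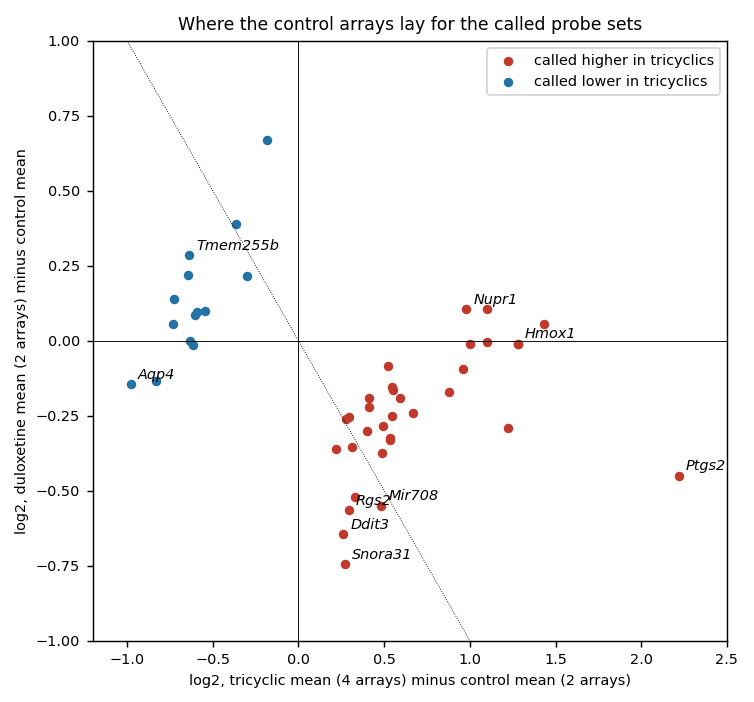
Mean log2 difference from control of the tricyclics (x axis) and of duloxetine (y axis) for the 47 called probe sets; red was called higher and blue lower in tricyclics, and on the dotted line both distances from control are equal. Ptgs2 and Hmox1 lie far along the x axis, and Ddit3, Rgs2 and Snora31 lie nearer the bottom, where the duloxetine values were below control. Both axes share the control arrays.

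Of the called probe sets 7 belong to classes passed over in naming genes: 2 clones, a small nucleolar RNA (Snora31), 2 microRNA loci and 2 olfactory receptor genes, Olfr1368 and Olfr1106, which lay below the 30th percentile. The microRNA loci are given here because their products are known, and were chosen after their values were seen. Mir708 read 7.17 and 7.49 under amitriptyline and 6.81 and 7.28 under imipramine, against 6.18 and 6.13 under duloxetine, with 6.77 and 6.64 in control (difference 1.03 ± 0.15 SE, adjusted p = 0.0378; 1.01 and 1.06). Mir382 read 8.90 and 8.81 under amitriptyline and 8.72 and 8.63 under imipramine, against 8.28 and 8.18 under duloxetine, with 8.50 and 8.48 in control (0.54 ± 0.08 SE, adjusted p = 0.0398; 0.49 and 0.59). For both loci every tricyclic array lay above every control array and every control array above duloxetine. The probe sets read transcripts of the locus and do not tell mature from precursor RNA. The mature sequences from RefSeq (GRCm38.p6), on chromosome 7 for miR-708 and 12 for miR-382, are shown with the seed (bases 2 to 8) in capitals, and no seed is shared among them.
mmu-miR-708-5p: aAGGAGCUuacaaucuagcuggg
mmu-miR-708-3p: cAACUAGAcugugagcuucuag
mmu-miR-382-5p: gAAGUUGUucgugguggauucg
mmu-miR-382-3p: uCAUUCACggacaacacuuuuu

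The tricyclics could also be compared with each other at the same dose and time. They differ in the central ring, where imipramine has a nitrogen and amitriptyline a carbon joined to the side chain by a double bond. Amitriptyline minus imipramine called 0 of 23521 probe sets in limma (0%), with a lowest adjusted p of 0.59 and 484 at an unadjusted p under 0.05, and the 95% interval had a median half-width of 0.313 log2 units. Over the 47 probe sets called against duloxetine the difference ran from −0.38 (Snora31) to 0.29 (Mir708). The estimated difference for Ptgs2 was −0.30 (95% interval −0.87 to 0.27), for Ier3 −0.16 (−0.37 to 0.06), for Hmox1 −0.01 (−0.36 to 0.34) and for Aqp4 −0.10 (−0.41 to 0.22). These intervals do not show that the drugs act alike. The genes of lowest p were above in amitriptyline for Eif4a3l1 (0.64, 95% interval 0.32 to 0.95), Srsx (0.79), Speer4c (0.40), Taf1d (0.40) and Fes (0.37). They were below for Ahcy (−0.81, −1.31 to −0.31), Cd109 (−0.56), the quinone reductase gene Nqo1 (−0.48), Mettl7a1 (−0.41) and Slc16a9 (−0.41), none of which passed.

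**Figure D5:**
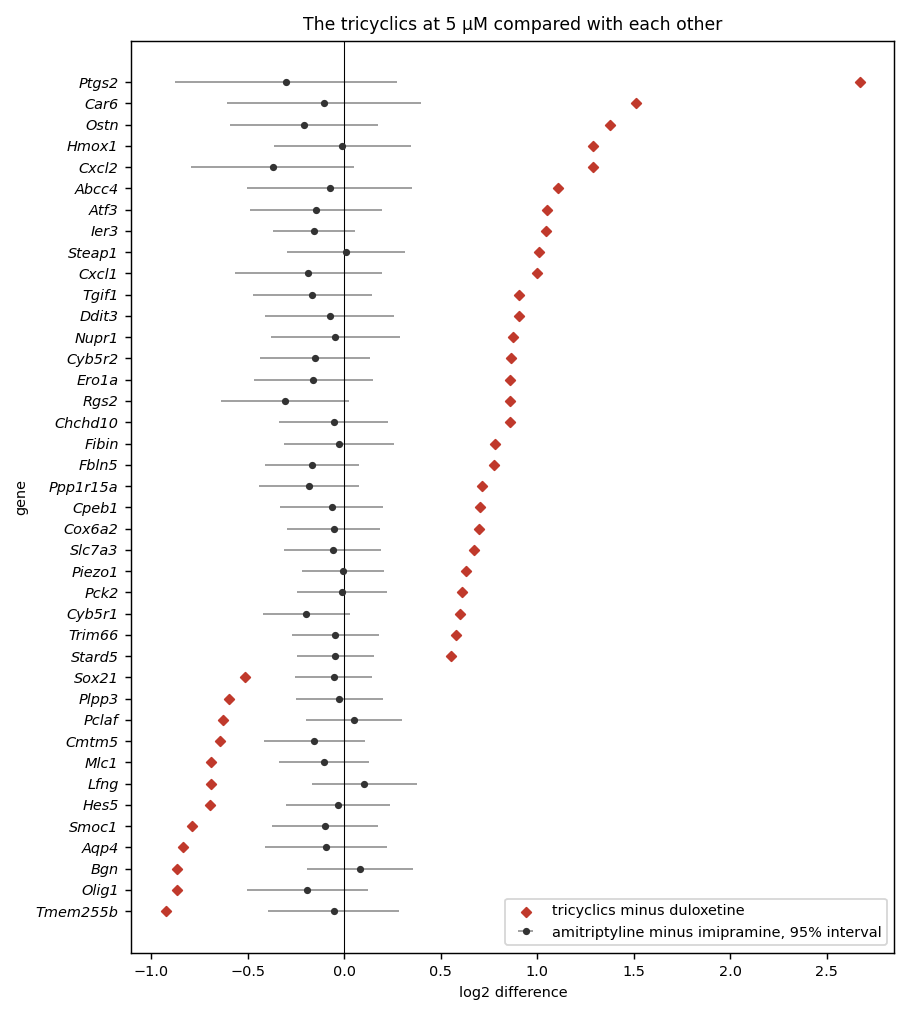
For the 40 called genes of named kinds, black points with bars are the log2 difference of amitriptyline minus imipramine with its 95% interval and red diamonds the tricyclics minus duloxetine difference. Every interval drawn includes 0, and most points lie left of 0, on the imipramine side.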

How the data were processed

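Transcript levels were measured on 12 Affymetrix whole-transcript arrays, 2 for each of 6 groups taken from the labels' titles. The deposited log2 values (41345 probe sets, 2 decimals) were made by the authors with Affymetrix Expression Console and RMA, per the submitters' processing notes. Their settings and versions are not stated in the sources used here. RMA values carry no depth, and the number of arrays limits the precision. Of the probe sets 23521 had 1 gene symbol in the platform annotation, 1814 several and 16010 none, and 99.2% of the single symbols matched the GRCm38.p6 gene table by gene number.

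A linear model of 6 groups was fitted to the 12 arrays with limma 3.58.1 under R 4.3.3 (lmFit, eBayes), with 6 residual and 3.68 prior degrees of freedom. The contrast was the mean of amitriptyline and imipramine minus duloxetine, with each tricyclic alone and the tricyclics against each other beside it. P-values are two-sided, adjusted by Benjamini-Hochberg over 23521 probe sets and called under 0.05. Named are the 15 higher and 15 lower genes of lowest p at or above the 30th percentile, 5 in each direction for amitriptyline minus imipramine, up to 4 of lowest p per list described and a fixed set, of which some genes are not reported here. Predicted genes, clones, small RNAs and olfactory receptors were passed over. The 29 lists take a gene's brightest probe set and are described by counts and medians, with no set test. Members, lists and tests were chosen with earlier results of these data known. The fit was tested on simulated data. Alternatives were filters at the 30th and 50th percentiles, 1 probe set per gene, all probe sets, trend and robust eBayes, a replicate block, weights per array, quantile normalization repeated, a minimum difference of 0.5, the 6 arrays alone, and arrays left out. The exact test used scipy 1.17.1 and the figures matplotlib 3.10.9, both under Python 3.11.15.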

Additional observations from a re-analysis of the deposited data

How the results depend on the processing

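The number of probe sets called depended on the processing. None of the named genes called in the main setting and recomputed under the alternatives changed sign, but their choice largely fixed this. All 4 tricyclic arrays lay to 1 side of both duloxetine arrays in each, so leaving out an array cannot turn the sign. For tricyclics minus duloxetine the count of 47 (33 higher, 14 lower) became 90 (68, 22) with a filter at the 30th percentile and 208 (137, 71) at the 50th, 5 (5, 0) over every probe set, 145 (102, 43) with eBayes trend and robust, 0 with array weights, 90 (45, 45) after a second quantile normalization, 4 (3, 1) with the 6 arrays alone and 0 without duloxetine replicate 2 and mirtazapine replicate 2. Of the 47 probe sets, 45 stayed called with the 30th percentile filter, 44 with the 50th, 47 with trend and robust and 43 after the second normalization. Leaving out 1 array gave 0 to 2753 (0 to 1227 higher, 0 to 1526 lower). The replicate numbers did not pair the samples (correlation of the deviations of same-numbered arrays 0.0809 between the tricyclics and −0.267 and −0.134 with duloxetine), and a replicate block left 4 called (4, 0). For amitriptyline minus duloxetine the count of 2 became 49 with the 50th percentile filter, 1 over every probe set, 44 with trend and robust, 18 after the second normalization, and 0 with array weights, the replicate block, the 6 arrays alone or both arrays left out, with 0 to 816 over single arrays left out. For imipramine minus duloxetine the count of 2 became 22 and 44 with the filters, 48 with trend and robust, 14 after the second normalization, and 0 over every probe set, with array weights, the 6 arrays alone or both arrays left out, with 0 to 1765 over single arrays left out. Amitriptyline minus imipramine called 0 under each alternative, with a lowest adjusted p of 0.0571 under array weights. Filters test fewer probe sets and left-out arrays leave fewer samples, but the cause of the changes in count was not tested for any alternative. A group with 1 array left borrowed its spread from the rest. The median of mitosis genes was −0.51 without duloxetine replicate 2 and −0.12 without replicate 1, and that of interferon response genes turned to 0.21 with the 50th percentile filter, which left 7 of them.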

Other observations

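The means of citalopram and of mirtazapine each lay on the tricyclic side of the duloxetine mean for all 47 called probe sets, which is a description only, since all these differences share the 2 duloxetine arrays. Single levels in some of the genes were as follows. Ptgs2 read 9.84 and 9.99 under citalopram and 9.88 and 9.26 under mirtazapine, Ier3 9.15 and 9.19 under citalopram and 9.11 and 9.14 under mirtazapine, and Hmox1 10.38 and 10.39 under citalopram and 10.58 and 10.24 under mirtazapine. Aqp4 read 7.98 and 7.83 under citalopram and 7.63 and 7.39 under mirtazapine. Olig1 read 10.10 and 10.09 under citalopram and 9.89 and 9.86 under mirtazapine. Gpr17, which was not called, read 7.13 and 7.30 under citalopram and 7.24 and 7.57 under mirtazapine. For Npas4, which was not called either, mirtazapine read 8.64 and 8.48 and citalopram 7.60 and 7.69.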
